A study of Mus musculus with 6 samples.

Results

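The data are RNA abundances of 10 imprinted genes in a mouse fibroblast line and in a mutated derivative of it. The genes were H19, Meg3, Dlk1, Peg3, Mest, Plagl1, Grb10, Ndn, Peg10 and Cdkn1c, and all 10 were found among the 55401 genes of the table. They were chosen by gene symbol as imprinted genes thought to be expressed in fibroblasts. Earlier results of these data were known when they and the other gene lists were chosen. RNA-seq was done on NIH-3T3, an immortal line derived from mouse embryo fibroblasts, in 2 groups of 3 libraries each. One group was the unmutated line, labelled WT, and the other was the mutated derivative, labelled MU. Both were grown in culture under the same medium, and the labels name no drug or time point. The series title concerns errors in mitochondrial translation, oxidative stress, cell cycle arrest and cardiomyopathy, but the labels do not say which gene was mutated, by what method, or whether MU is 1 clone, and a difference between MU and WT cannot be told apart from a difference between clones or passages of the line. Replicates are numbered but are not said to be separate cultures, so p-values measure the spread between these libraries, which may be technical.

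An imprinted gene is transcribed from the copy inherited from only 1 parent, because a DNA methylation mark set in the egg or the sperm is kept at a control region through later cell divisions. Imprinted genes lie in clusters, where 1 control region governs several neighbours and where maternally expressed non-coding RNAs often sit beside paternally expressed protein-coding genes. Many act on fetal growth, on the insulin-like growth factor (IGF) pathway and on exit from the cell cycle. In mice H19, Meg3 and Cdkn1c are expressed from the maternal copy, and so is Grb10 outside the nervous system. Dlk1, Peg3, Mest, Plagl1, Ndn and Peg10 are expressed from the paternal copy. The measurements are totals per gene, so they do not separate the parental copies, and fewer expressing cells cannot be told apart from less RNA per cell.

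Promoter windows are shown for the 3 members that were called changed, Meg3, Grb10 and Ndn, and for Peg12, the neighbour that was called in the same direction as Ndn. They are RefSeq windows of the GRCm38.p6 build, with 250 bases before the start of transcription and 50 bases after it, written 5′ to 3′ on the strand of the gene. Capitals mark TGCCGC, or GCGGCA where it lies on the other strand, the letters that ZFP57, a zinc-finger protein that protects imprints, binds when the CpG is methylated. These letters occur in 11.6% of 32817 mouse promoter windows, and a match is a description of the letters, not a site shown to be bound. Meg3 and the CpG-rich window of Grb10 hold 1 match each, and the second Grb10 window and the windows of Ndn and its neighbour Peg12 hold none; a second Meg3 window, with 1 CpG pair and no match, is not shown. The number of CpG pairs is 13 for Meg3, 45 and 9 for the pair of Grb10 windows, 11 for Ndn and 12 for Peg12, against a median of 7 over all windows.
Meg3, chr12:109540746-109541045, plus strand: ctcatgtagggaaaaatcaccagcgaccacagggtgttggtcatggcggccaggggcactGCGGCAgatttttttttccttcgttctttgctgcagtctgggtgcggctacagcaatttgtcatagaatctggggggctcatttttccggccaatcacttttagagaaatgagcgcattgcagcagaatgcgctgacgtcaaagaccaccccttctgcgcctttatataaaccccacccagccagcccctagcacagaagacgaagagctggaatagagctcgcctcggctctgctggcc
Grb10, CpG-rich window, chr11:12037371-12037670, minus strand: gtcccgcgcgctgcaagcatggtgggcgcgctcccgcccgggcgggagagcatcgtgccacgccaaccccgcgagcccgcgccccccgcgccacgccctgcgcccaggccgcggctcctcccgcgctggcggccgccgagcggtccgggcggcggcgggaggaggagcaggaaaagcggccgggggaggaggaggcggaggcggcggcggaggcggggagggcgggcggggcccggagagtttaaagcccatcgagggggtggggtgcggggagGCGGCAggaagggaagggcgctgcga
Grb10, second window, chr11:12027922-12028221, minus strand: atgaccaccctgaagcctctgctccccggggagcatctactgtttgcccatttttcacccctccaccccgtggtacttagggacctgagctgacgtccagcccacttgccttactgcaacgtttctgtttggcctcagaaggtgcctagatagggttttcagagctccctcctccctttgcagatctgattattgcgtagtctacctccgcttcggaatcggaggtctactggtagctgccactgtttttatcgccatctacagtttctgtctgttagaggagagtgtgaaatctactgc
Ndn, chr7:62348027-62348326, plus strand: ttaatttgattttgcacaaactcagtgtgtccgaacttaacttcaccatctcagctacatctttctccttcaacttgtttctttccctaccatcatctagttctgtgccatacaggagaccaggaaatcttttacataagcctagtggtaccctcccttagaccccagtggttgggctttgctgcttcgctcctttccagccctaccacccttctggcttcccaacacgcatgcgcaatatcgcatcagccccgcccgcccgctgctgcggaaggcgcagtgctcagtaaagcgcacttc
Peg12, chr7:62464461-62464760, minus strand: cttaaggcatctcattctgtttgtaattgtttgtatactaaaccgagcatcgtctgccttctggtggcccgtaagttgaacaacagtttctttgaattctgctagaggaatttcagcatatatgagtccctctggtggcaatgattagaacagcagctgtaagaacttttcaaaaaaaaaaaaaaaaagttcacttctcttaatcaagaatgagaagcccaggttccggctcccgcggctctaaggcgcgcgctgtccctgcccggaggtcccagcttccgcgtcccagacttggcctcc

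Abundance is given as TPM, a share of the library that is corrected for transcript length and set to the same total in each library. Levels can therefore be compared between genes, but the sequencing depth is unknown and no counting interval can be given. The 3 WT libraries differed in base composition: the deviation of a gene from its mean over all 6 libraries correlated with its GC content across genes with a Spearman rho of 0.33 in WT 2 and -0.25 in WT 3, against -0.12 to 0.17 in the MU libraries and -0.084 in WT 1. Of 11 fibroblast markers, 9 passed the filter on low values, 4 were called higher in MU (Col1a1, Col1a2, Thy1 and Fn1), and the summed TPM of all 11 was 8556 to 9843 in WT and 11126 to 11633 in MU. Fap and Lum, which also mark fibroblasts, were at most 1.68 TPM in WT, and in MU Fap was listed at 0 and Lum at no more than 0.162. The muscle regulators Myod1, Myog and Myf5 and the pluripotency factors Pou5f1 and Sox2 were listed at 0 in all 6 libraries, and the leukocyte marker Ptprc was at most 0.285 TPM. Of the other tested markers, the muscle actin gene Acta1 rose from a mean of 0.658 TPM to 3.004 TPM and the endothelial Cdh5 fell from 1.82 to 0.105 TPM. Each of these 2 genes had passed the filter through 1 group. Lpl, the only adipocyte marker that was tested, was called lower, with a log2 difference of -0.72. The macrophage marker Cd68, at a mean of 2.56 TPM in WT and 4.47 TPM in MU, and the keratin gene Krt14 did not pass. The part of these markers in the results was not tested.

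Differences were tested on log2(TPM + 1) with limma over the 14209 genes that reached 1 TPM in at least 3 libraries, and a gene is called changed at an adjusted p under 0.05. Across all of these genes 18.8% were called, 7.12% higher and 11.6% lower in MU, and in 39.2% the WT and MU values did not overlap. Of 2667 called genes, 37.9% were higher; this share was 48.4% when TPM was rescaled without mitochondrial genes or by the median of ratios, and 48.9% after quantile normalization. Leaving out 1 library gave from 991 (without MU 2) to 3270 (without WT 2) called genes, with 1279 without WT 1, 1091 without MU 1 and 1116 without MU 3. The median difference over all tested genes was -0.05 on the log2 scale.

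Of the 10 imprinted genes, 7 passed the filter, 1 was called higher in MU (Grb10) and 2 were called lower (Ndn and Meg3). This is 42.9% against 18.8% of all genes. Because all lists were chosen with earlier results known, such shares, here and below, describe the lists and do not show an excess. Meg3 passed only through its WT libraries and therefore had to differ; with such genes left out on both sides, 2 of 6 were called (33.3%, against 17.4%). WT and MU values did not overlap in 6 of the 7, Meg3 included, against 39.2% of all genes, and the median difference was -0.43. The remaining 4 tested genes, Dlk1, Plagl1, Peg3 and Mest, did not pass. H19, Cdkn1c and Peg10 were below 1 TPM in every library, which goes against calling these 3 genes expressed in this line. By parental copy, 1 of the 2 tested maternally expressed genes was called higher and 1 lower; of the 5 tested paternally expressed genes 0 were called higher and 1 lower, and 4 had a lower mean in MU.

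**Figure D1:**
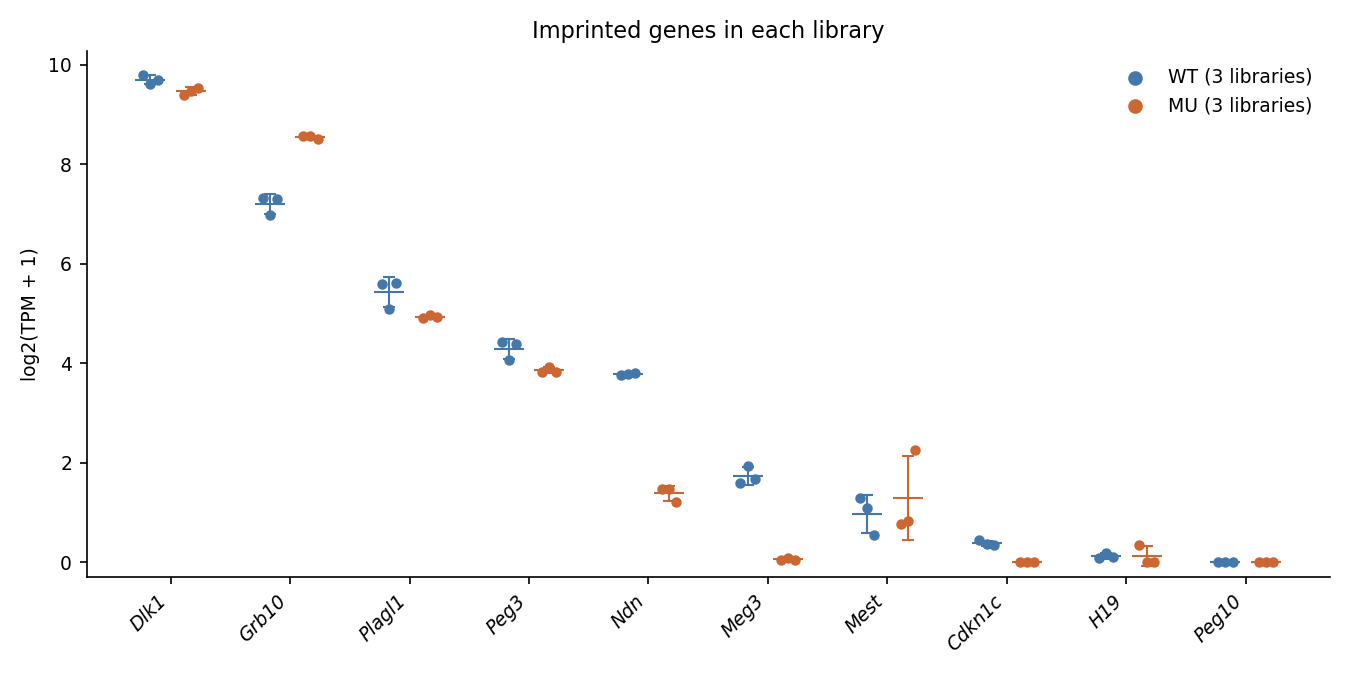
Abundance of the 10 imprinted genes in each library as log2(TPM + 1), ordered by mean WT level. Points are single libraries, horizontal bars are group means and whiskers are 1 SD (n = 3 per group). Grb10 is higher in all 3 MU libraries, Ndn and Meg3 are lower in all 3, and Mest overlaps, with 1 MU library far above the others.

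Grb10 was the member that rose. It encodes an adaptor protein that binds the activated insulin and IGF1 receptors and restrains their signalling. The gene (ENSMUSG00000020176.17) spans chr11:11930508-12038683 on the minus strand of GRCm38. Its level was 158, 125 and 158 TPM in WT 1 to 3 and 379, 377 and 361 TPM in MU 1 to 3. All MU libraries lay above all WT libraries, and the MU libraries differed from each other less than the WT libraries did. The ratio of the means was 2.53 (MU over WT), and the log2 difference was 1.34 with a standard error of 0.11 (limma adjusted p = 0.0011, n = 3 per group). In the authors' deposited table, the log2 fold change of Grb10 is 1.36 with an adjusted p of 6.58e-31. Ddc and Cobl, which flank Grb10 in its cluster, stayed under 1 TPM in all libraries.

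Ndn fell by the largest difference among the members on log2(TPM + 1). It encodes necdin, a MAGE-family protein known from postmitotic neurons that binds E2F1 and p53 and restrains cell division. Ndn (ENSMUSG00000033585.5) lies at chr7:62346569-62350262 on the plus strand. Its level was 12.5, 12.7 and 12.9 TPM in the WT libraries and 1.78, 1.76 and 1.31 TPM in the MU libraries. The groups were far apart, and the 3 WT values were close to one another. The WT mean was 7.87-fold the MU mean, and the log2 difference was -2.40 with a standard error of 0.13 (limma adjusted p = 0.000266). The authors' deposited table lists a log2 fold change of -2.75 for Ndn with an adjusted p of 1.63e-53.

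Meg3 was low in WT and lower in MU. It is a maternally expressed long non-coding RNA of the Dlk1-Dio3 cluster, whose transcription unit begins a string of non-coding RNAs that host microRNAs and small nucleolar RNAs. The gene (ENSMUSG00000021268.17) spans chr12:109541001-109571726 on the plus strand. WT levels were 2.00, 2.81 and 2.18 TPM, and MU levels were 0.0241, 0.0605 and 0.0289 TPM. No MU library came near the lowest WT library, but Meg3 passed the filter only through WT, so its groups had to separate. The WT mean was 61.6-fold the MU mean in TPM, while the difference on log2(TPM + 1) was -1.68 with a standard error of 0.20 (limma adjusted p = 0.00339). That log2 value depends on the added constant at such low levels, from -4.14 with 0.1 to -0.54 with 5. In the authors' deposited table the log2 fold change of Meg3 is -4.39, with an adjusted p of 2.68e-43.

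Dlk1, the paternally expressed neighbour of Meg3, was the most abundant of the 10 genes. It encodes a membrane protein with EGF-like repeats, related to Notch ligands, that is shed from the cell surface and holds back the maturation of preadipocytes. Dlk1 (ENSMUSG00000040856.17, chr12:109452823-109463336, plus strand) was at 886, 787 and 835 TPM in WT and 671, 714 and 744 TPM in MU. Among the 14209 tested genes it ranked 174 by mean TPM in WT and 187 in MU. Every MU library was below every WT library, but the log2 difference of -0.24 with a standard error of 0.09 did not pass (limma adjusted p = 0.136). Meg3 RNA amounted to 0.226, 0.357 and 0.262 percent of Dlk1 RNA in WT 1 to 3 and to 0.00359, 0.00847 and 0.00388 percent in MU 1 to 3. No MU library reached the lowest WT share. Meg3 passed the filter only through WT and Dlk1 varied little, so this separation is not a further result. The Dlk1 level itself did not pass.

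Plagl1 and Peg3, both paternally expressed zinc-finger genes, had lower values in MU that did not pass the threshold. PLAGL1 is a transcription factor linked to cell cycle arrest and to the control of other imprinted genes, and PEG3 is a DNA-binding protein that represses transcription. Plagl1 (ENSMUSG00000019817.18, chr10:13060504-13131694, plus strand) was at 47.3, 33.0 and 47.9 TPM in WT and 29.1, 30.1 and 29.7 TPM in MU. Peg3 (ENSMUSG00000002265.17, chr7:6703892-6730431, minus strand) was at 20.5, 15.7 and 19.97 TPM in WT and 13.2, 14.2 and 13.1 TPM in MU. For both genes the groups did not overlap, and WT 2 was the WT library closest to MU. The log2 difference was -0.49 with a standard error of 0.15 for Plagl1 (limma adjusted p = 0.068) and -0.43 with a standard error of 0.13 for Peg3 (limma adjusted p = 0.057). Without WT 2, the values were -0.67 for Plagl1 (limma adjusted p = 0.00416) and -0.55 for Peg3 (limma adjusted p = 0.012). After correction of each library for GC content and transcript length, Plagl1 and Peg3 also passed, at adjusted p of 0.042 and 0.0261. Across the 18 alternatives Plagl1 passed in 3 and Peg3 in 4, and the adjusted p ran from 0.00416 to 0.183 for Plagl1 and from 0.012 to 0.165 for Peg3. Both genes are called lower in the authors' deposited table, with adjusted p of 0.0127 for Plagl1 and 0.00996 for Peg3.

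Mest was low and erratic. It encodes a membrane protein with an α/β-hydrolase fold that is known from growing mesoderm and from expanding fat tissue. Mest (ENSMUSG00000051855.15, chr6:30723547-30748465, plus strand) was at 1.44, 1.13 and 0.460 TPM in WT and 0.700, 0.781 and 3.80 TPM in MU. MU 3 was the highest of the 6 libraries and the other MU libraries lay inside the WT range, so the log2 difference of 0.31 with a standard error of 0.45 was smaller than the spread (limma adjusted p = 0.678). Mest overlaps Copg2 on the opposite strand, and the sources used here do not say whether reads were counted by strand, so reads of the pair may not be fully separated.

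The 3 genes that were not tested stayed near the bottom of the scale. Cdkn1c, which encodes an inhibitor of cyclin-dependent kinases, read 0.354, 0.277 and 0.261 TPM in the WT libraries, and each MU library lists it at 0 (ENSMUSG00000037664.13, chr7:143458339-143461050, minus strand). Without the filter on low values, Cdkn1c had a log2 difference of -0.37 and passed (limma adjusted p = 0.0128). That pass rests on MU values listed at 0 without spread, at an unknown depth. The authors' deposited table gives Cdkn1c no adjusted p and does not call it changed. H19, a maternally expressed non-coding RNA that restrains growth, was at 0.0570, 0.132 and 0.0701 TPM in WT and at 0.269 TPM in MU 1, and it was listed at 0 in MU 2 and MU 3 (ENSMUSG00000000031.16, chr7:142575529-142578143, minus strand). Peg10, a gene derived from a retrotransposon and needed in the placenta, was listed at 0 in all 6 libraries (ENSMUSG00000092035.8, chr6:4747306-4760517, plus strand). H19 shares its control region with Igf2, whose values follow.

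The other genes of the same clusters were examined next. Of 46 listed, 42 were in the table and 20 passed the filter; 3 were called higher (Pon3, Cd81 and Copg2) and 5 lower (Igf2, Asb4, Peg12, Begain and Ube3a), which is 40.0% against 18.8% of all genes. Igf2, Asb4 and Mirg passed only through WT, and with genes that passed through 1 group left out on both sides, 6 of 17 were called (35.3%, against 17.4%). The median log2 difference of the 20 genes was -0.26, and 12 of them did not overlap between groups (39.2% of all genes), the 3 that passed through WT included. Leaving out 1 library gave 3 (without WT 1) to 7 called genes, with 5 without MU 1 or MU 2.

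**Figure D2:**
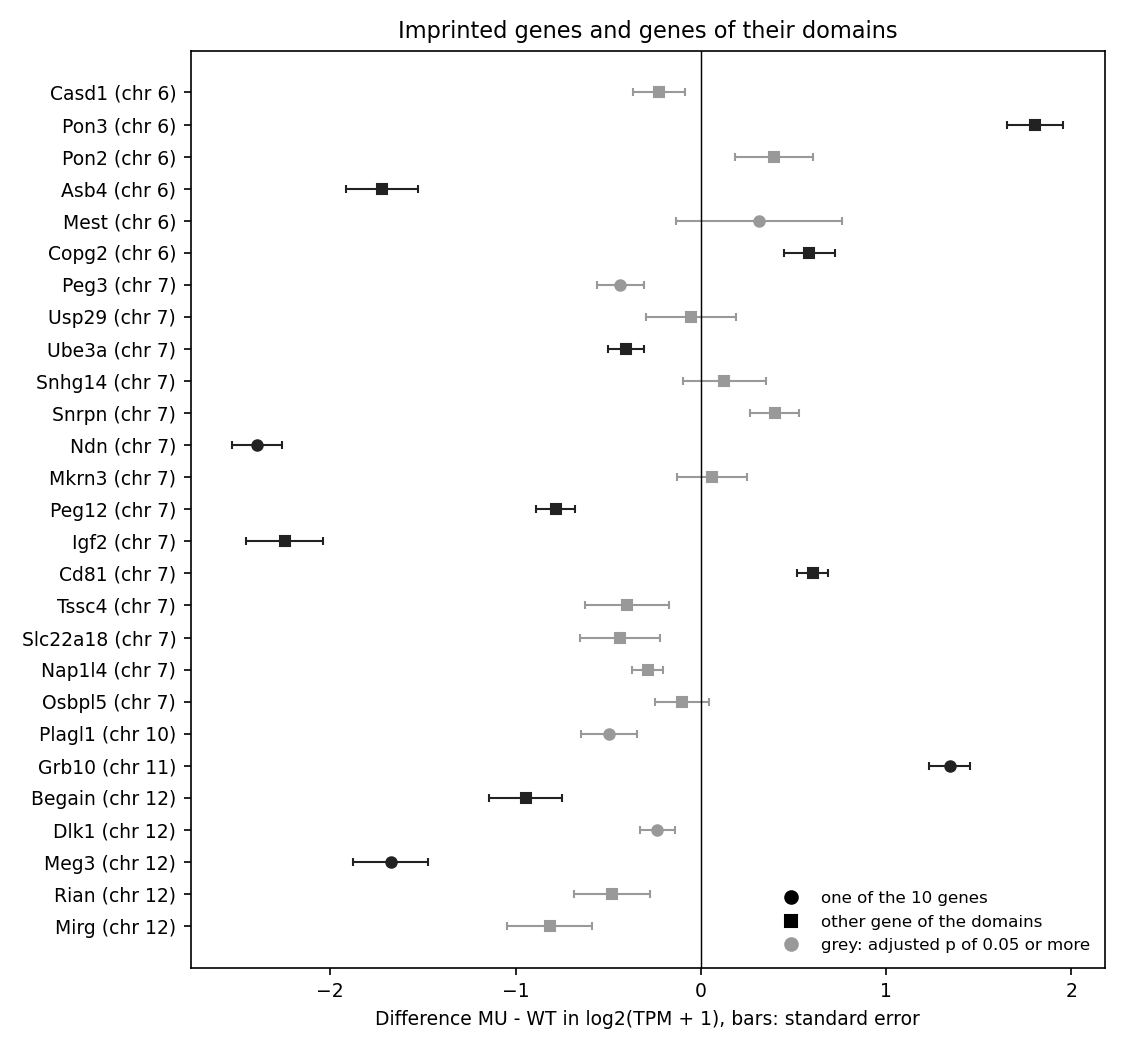
Difference MU minus WT in log2(TPM + 1) for the 27 tested genes of the imprinted clusters, in genome order. Circles are 7 of the 10 imprinted genes, squares the 20 other genes of the clusters, bars standard errors from limma, and grey marks an adjusted p of 0.05 or more; Ndn, Igf2, Asb4 and Meg3 lie furthest to the left, and Pon3 and Grb10 furthest to the right.

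In the cluster of H19 and Cdkn1c on chromosome 7, Igf2 fell. Igf2 encodes insulin-like growth factor 2, the fetal growth factor made from the paternal copy. It was at 4.20, 6.15 and 4.06 TPM in WT and 0.292, 0.103 and 0.238 TPM in MU, a ratio of means of 22.8 (WT over MU). Igf2 passed the filter only through WT, so its groups had to separate. The log2 difference was -2.25 with a standard error of 0.21 (limma adjusted p = 0.00142). At such low levels this value depended on the setting, and it ran from -4.01 to -0.91 over the alternatives. Cd81, which encodes a tetraspanin of the cell surface, rose from 148, 157 and 138 TPM to 226, 232 and 217 TPM (log2 difference 0.60, limma adjusted p = 0.00524). Nap1l4 (-0.29), Slc22a18 (-0.44), Tssc4 (-0.40) and Osbpl5 (-0.10) lie in the same cluster and did not pass. Kcnq1ot1, the antisense RNA that silences the Cdkn1c part of this region, but not Igf2, on the paternal copy, was between 0.503 and 0.724 TPM in all libraries. Its groups overlapped.

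In the Dlk1-Dio3 cluster, the maternally expressed non-coding RNAs did not all differ to the degree of Meg3. Rian, which carries small nucleolar RNAs, was at 2.40, 2.32 and 1.73 TPM in WT and 0.960, 1.16 and 1.69 TPM in MU (log2 difference -0.48, limma adjusted p = 0.156). Mirg, a microRNA host, was at 1.35, 1.38 and 1.42 TPM in WT and 0.277, 0.694 and 0.146 TPM in MU (-0.82, limma adjusted p = 0.0513). Neither passed; the Rian groups did not overlap, and Mirg, which passed the filter only through WT, could not have overlapped. Begain, a gene at the Dlk1 end of the cluster, fell from 3.85, 3.73 and 3.53 TPM to 0.935, 1.65 and 1.83 TPM (-0.95, limma adjusted p = 0.0195), a call lost without WT 1, MU 1 or MU 2. Rtl1, a retrotransposon-derived gene from the paternal copy, stayed under 1 TPM, at 0.160, 0.0539 and 0.117 TPM in WT and 0.462, 0.374 and 0.516 TPM in MU, and was not tested. The authors' deposited table calls Rtl1 higher, with a log2 fold change of 1.41 and an adjusted p of 0.00053.

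Around Ndn, in the region that corresponds to the human Prader-Willi and Angelman locus, 2 of the 5 other tested genes were called, both lower. Of all tested genes, 18.8% were called. Peg12 encodes a protein of the FRAT family, which binds the kinase GSK3, and starts 118 kb from Ndn. It was at 10.7, 10.5 and 11.7 TPM in WT and 5.99, 6.03 and 5.84 TPM in MU, a log2 difference of -0.78 with a standard error of 0.10 (limma adjusted p = 0.00478). Ndn RNA was 117, 121 and 111 percent of Peg12 RNA in the WT libraries and 29.7, 29.2 and 22.5 percent in the MU libraries. No MU library reached the lowest WT ratio. This follows from the levels of the 2 genes, as Ndn fell more than Peg12, and is not a further result. Mkrn3, which encodes a RING-finger protein, lies between Ndn and Peg12 and had overlapping groups (0.06, limma adjusted p = 0.857). Snrpn, which encodes a splicing protein, was at 8.11, 7.91 and 6.18 TPM in WT and 9.53, 10.6 and 9.92 TPM in MU (0.40, limma adjusted p = 0.085). Ube3a, a ubiquitin ligase gene, had a log2 difference of -0.41 (limma adjusted p = 0.0307), while its antisense transcript Snhg14 had overlapping groups (0.13, limma adjusted p = 0.736); the pair overlaps on opposite strands. The call of Ube3a was lost under 11 of 18 alternative settings, which include leaving out any library but WT 2.

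In the Peg10 cluster on chromosome 6, Peg10 itself was listed at 0, and other genes differed in opposite directions. Sgce, which shares a start region with Peg10, was at most 0.214 TPM. Pon3, which encodes a paraoxonase, rose from 1.32, 1.51 and 1.07 TPM to 6.38, 7.30 and 7.39 TPM (1.81, limma adjusted p = 0.00107). Asb4, which encodes a substrate receptor of a ubiquitin ligase, fell from 3.57, 2.68 and 3.56 TPM to 0.159, 0.376 and 0.338 TPM (-1.72, limma adjusted p = 0.00278). Asb4 passed the filter only through WT, so its groups had to separate, and its log2 difference ran from -3.14 to -0.64 over the alternatives. Pon2 (0.40) and Casd1 (-0.23) did not pass. Beside Mest, Copg2, which encodes a coatomer subunit, rose by 0.59 (limma adjusted p = 0.029), a call lost under 6 of 18 settings, among them without WT 1 and without each MU library. Usp29, beside Peg3, had overlapping groups (-0.05, limma adjusted p = 0.906).

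Neighbouring genes outside the imprinted lists were compared over the same stretches of chromosome. Whether any of them is imprinted was not checked. Of all tested genes, 18.8% were called, and the small counts below are a description only. Within 1000 kb of Meg3, 8 other protein-coding genes were tested and 0 were called, with log2 differences from -0.35 to 0.21. Around H19, 0 of 8 were called, and around Grb10 0 of 2. On the side of Grb10 with higher coordinates, the nearest tested protein-coding gene outside the imprinted lists was Sec61g, 4460 kb away. Sec61g was called higher (0.72, limma adjusted p = 0.0191). No other protein-coding gene was tested within 1000 kb of Ndn, and the nearest tested protein-coding genes outside the imprinted lists, Gm38393 and Klf13, did not pass; Gm38393 overlaps the imprinted Snrpn on the same strand. Of 5 tested genes of other kinds within that distance of Ndn, A330076H08Rik, a processed transcript, was called higher (0.83, limma adjusted p = 0.0448), and so was Gm3257, a processed pseudogene (1.01, limma adjusted p = 0.0195). Both were named after their values were seen. Protein-coding neighbours were called beside Peg10 (2 of 4, Col1a2 and Pdk4, both higher), Mest (2 of 9) and Plagl1 (2 of 9). They were also called beside Peg3 (1 of 12) and Cdkn1c (1 of 6). The gene called beside Cdkn1c was Tnfrsf22, which starts 189 kb from it (-0.41, limma adjusted p = 0.0452) and was named after its values were seen. These counts leave out genes of other kinds, some of which were called beside Mest and Peg10. Col1a2, a collagen gene at 206 kb from Peg10, rose by 1.34 (limma adjusted p = 0.00062), and Pdk4, a kinase gene of pyruvate metabolism, rose by 2.33 (limma adjusted p = 0.00327).

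**Figure D3:**
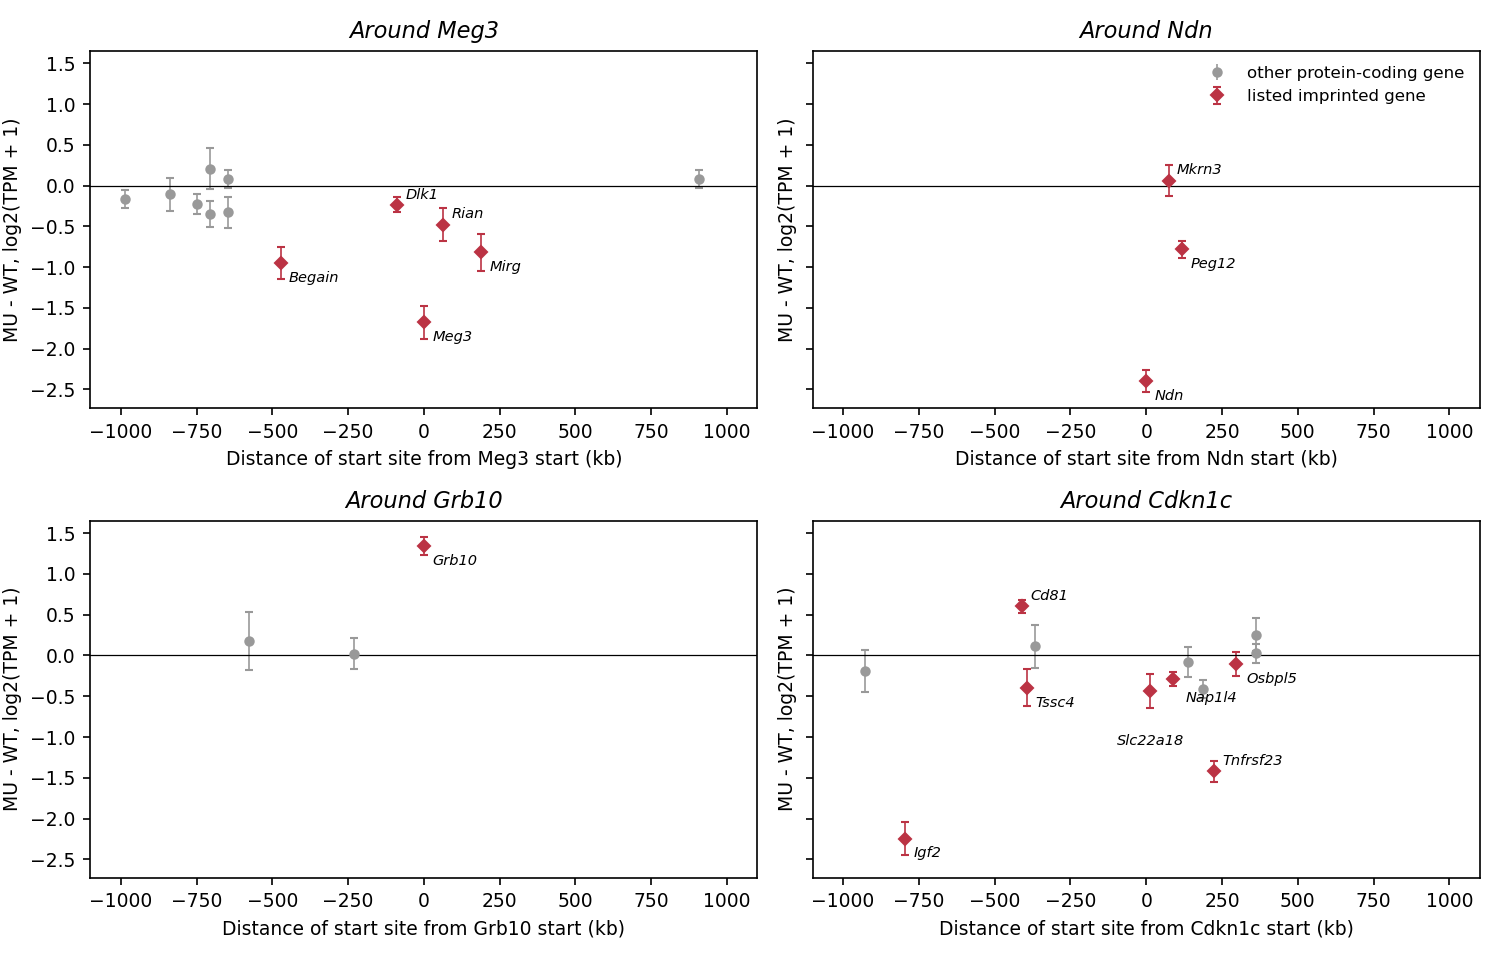
Difference MU minus WT in log2(TPM + 1) of tested genes against the distance in kb of their start sites from the start of Meg3, Ndn, Grb10 or Cdkn1c. Only protein-coding genes and genes of the imprinted lists are drawn, and tested genes of other kinds are left out. Red diamonds are listed imprinted genes, grey circles other protein-coding genes, and bars standard errors; around Meg3 the grey genes lie between -0.35 and 0.21 while Meg3 is at -1.68, and around Cdkn1c, which was not tested, Igf2 and Tnfrsf23 are low and Cd81 is high.

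Genes that are reported as imprinted in at least some tissues, and were not on the list of cluster genes, also differed in both directions. Of 35 listed, 34 were in the table and 23 were tested; 3 were called higher and 6 lower (39.1%, against 18.8% of all genes), with a median of -0.03. Peg13 and Sfmbt2, both lower, passed the filter only through WT, and with such genes left out on both sides 7 of 21 were called (33.3%, against 17.4%). Dcn, which encodes the small matrix proteoglycan decorin and is imprinted in the mouse placenta, fell from 125, 97.3 and 136 TPM to 7.35, 8.34 and 8.71 TPM (-3.71, limma adjusted p = 7.8e-05). Tnfrsf23, a decoy receptor gene that starts 225 kb from Cdkn1c and so lies between Nap1l4 and Osbpl5 in that cluster, although it was not counted among the 20 cluster genes above, fell from 72.7, 54.3 and 68.9 TPM to 24.2, 23.9 and 22.6 TPM (-1.42, limma adjusted p = 0.00126). Adam23, which encodes a membrane protein that binds integrins, rose from 5.34, 5.25 and 4.86 TPM to 17.7, 16.6 and 16.1 TPM (1.53, limma adjusted p = 0.000502). Slc38a4, an amino acid transporter gene, rose by 0.44 (limma adjusted p = 0.0134). Gnas, Impact, Commd1, Blcap and H13, named after their values were seen, had log2 differences from -0.07 to 0.10. Over all 91 genes listed, which are the members, the cluster genes and these genes, 50 were tested, 7 were called higher and 13 lower (40.0%). Without the genes that passed through 1 group, 15 of 44 were called (34.1%, against 17.4%). Cluster genes were listed because they lie in the clusters, and whether each gene is imprinted in this line was not tested. Dcn, Tnfrsf23 and Adam23 kept their calls with any 1 library left out, but Slc38a4 lost its call without any 1 MU library, and the list's count of 9 fell to 3 without MU 1 or MU 2, 4 without MU 3 and 5 without WT 1.

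Factors that set or protect imprints were called at about the background rate. Of 28 tested, 2 were higher and 2 lower (14.3%, against 18.8% of all genes), with a median of -0.07. Zfp57, whose protein binds the methylated control regions, rose from 31.1, 32.8 and 36.3 TPM to 46.8, 53.0 and 50.5 TPM (0.57, limma adjusted p = 0.0102), a call lost without MU 2 or without MU 3. H3f3a, a gene for the replacement histone H3.3, rose by 0.39 (limma adjusted p = 0.042). Hells, a chromatin remodeller needed for DNA methylation, fell from 67.6, 71.7 and 73.1 TPM to 50.5, 52.4 and 48.9 TPM (-0.48, limma adjusted p = 0.00911). Ctcf, whose protein insulates the control region between Igf2 and H19, fell from 76.7, 64.9 and 69.0 TPM to 50.6, 51.5 and 53.8 TPM (-0.42, limma adjusted p = 0.022). Dnmt1, the maintenance DNA methyltransferase, and Trim28, the partner of ZFP57, had values of -0.28 (limma adjusted p = 0.0956) and -0.29 (limma adjusted p = 0.0872); both were named after their values were seen. The count of 4 was 0 without MU 3, 1 without MU 1 or MU 2, 2 without WT 1 and 7 without WT 2; Hells lost its call without MU 1 or MU 3, Ctcf without WT 1 or any MU library, and H3f3a without any library but WT 2. DNA methylation itself was not measured in these libraries.

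Genes of the IGF and insulin pathway, on which Grb10 and Igf2 act, were called in 10 of 26 tested cases (38.5%, against 18.8% of all genes), 1 higher and 9 lower, with a median of -0.23. Of these 26 genes, 4 (Igf2, Igf1, Pappa and Pappa2) passed the filter only through WT, and with such genes left out 7 of 22 were called (31.8%, against 17.4% of all genes). Igfbp4, an IGF-binding protein gene, was the member that rose, from 9.19, 10.6 and 11.4 TPM to 19.8, 19.1 and 18.0 TPM (0.81, limma adjusted p = 0.0052). Igfbp7, a secreted binding protein gene, fell from 34.4, 34.4 and 22.4 TPM to 4.43, 4.61 and 5.91 TPM (-2.37, limma adjusted p = 0.00103). Igf2 is the other gene with the smallest p among those that fell. Igf1, the second ligand gene, was at 3.76, 3.37 and 4.29 TPM in WT and 0.770, 0.981 and 0.0906 TPM in MU (-1.62, limma adjusted p = 0.00931). Irs1, the substrate through which the receptors signal, was at 8.32, 8.37 and 7.47 TPM in WT and 3.19, 3.26 and 2.89 TPM in MU (-1.14, limma adjusted p = 0.00241). Igf2r, the imprinted receptor gene that clears IGF2, fell by 0.51 (limma adjusted p = 0.0175). The signalling receptors Igf1r (0.24, limma adjusted p = 0.219) and Insr (0.05, limma adjusted p = 0.827) did not pass. Igf1, Irs1, Igf2r, Igf1r and Insr were named after their values were seen. Igfbp4, Igfbp7 and Irs1 kept their calls with any 1 library left out; Igf2 and Igf1 did so without any 1 MU library and were not tested without a WT library, while Igf2r lost its call without WT 1, MU 1 or MU 2; the count of 10 was 3 without WT 1 and 6 without WT 3, MU 1 or MU 2. Grb14, the paralogue of Grb10, was at 56.7 to 67.2 TPM in WT and 53.9 to 58.2 TPM in MU, with overlapping groups.

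**Figure D4:**
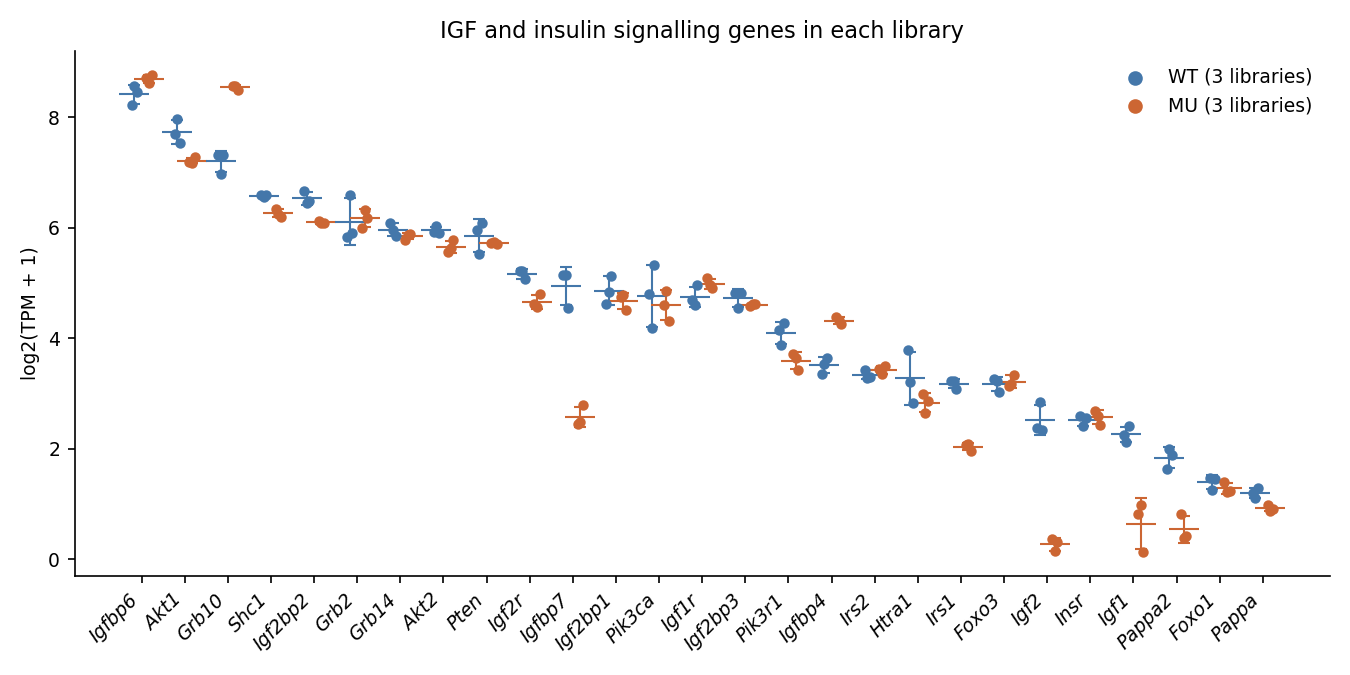
Abundance of the 26 tested genes of the IGF and insulin pathway and of Grb10 in each library as log2(TPM + 1), ordered by mean WT level. Points are libraries, horizontal bars group means and whiskers 1 SD (n = 3 per group); Grb10 and Igfbp4 are higher in MU, and Igfbp7, Irs1, Igf2, Igf1 and Pappa2 are lower.

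The Notch pathway, to which DLK1 is a non-canonical ligand, was called at about the background rate, in 3 of 17 tested cases (17.6%, against 18.8% of all genes), 2 higher and 1 lower, with a median of -0.09. Without Dlk2, which passed only through WT, it was 2 of 16 (12.5%, against 17.4%). Maml2, a coactivator gene, rose by 0.69 (limma adjusted p = 0.0224), and Lfng, which encodes a glycosyltransferase that tunes Notch receptors, rose from 1.30, 0.869 and 1.44 TPM to 5.08, 2.53 and 4.63 TPM (1.17, limma adjusted p = 0.0232). Dlk2, the paralogue of Dlk1, fell from 1.13, 2.24 and 1.89 TPM to 0.442, 0.559 and 0.437 TPM (-0.88, limma adjusted p = 0.0416). The count of 3 was 0 without MU 1 or MU 3 and 1 without WT 1 or MU 2, and Maml2, Lfng and Dlk2 each lost their call without MU 1 and without MU 3. In TPM, Dlk2 stayed far below Dlk1 in every library.

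Cyclin-dependent kinase inhibitors related to Cdkn1c were listed together with G1 kinases, cyclins, genes of the retinoblastoma family and E2F genes. In this list 6 of 19 tested genes were called (31.6%, against 18.8% of all genes), 1 higher and 5 lower, with a median of -0.23. None of the called genes was an inhibitor, and Cdk6 was the only kinase among them. Ccne1, the cyclin E1 gene, fell from 44.7, 42.8 and 51.4 TPM to 23.8, 25.7 and 21.5 TPM (-0.94, limma adjusted p = 0.00316). Cdk6, which partners D-type cyclins, fell by 0.64 (limma adjusted p = 0.0126), and Rb1, the retinoblastoma gene, rose by 0.70 (limma adjusted p = 0.0194). Cdkn1a, named after its values were seen, was at 59.8, 66.5 and 60.7 TPM in WT and 75.6, 72.2 and 79.4 TPM in MU. The groups did not overlap, but Cdkn1a did not pass (0.28, limma adjusted p = 0.0643). The authors' deposited table calls Cdkn1a higher, with a log2 fold change of 0.32 and an adjusted p of 0.0478. Cdkn1b was at 41.8 to 45.2 TPM in WT and 46.5 to 48.2 TPM in MU (0.10, limma adjusted p = 0.409). Cdkn2a and Cdkn2b were listed at 0 in all libraries. Ccne1 kept its call with any 1 library left out, Cdk6 lost it without MU 2 or MU 3 and Rb1 without WT 1 or any MU library, and the count of 6 was 1 without MU 2 or MU 3 and 2 without WT 1 or MU 1. The imprinted Cdkn1c was below the abundant members Cdkn1a and Cdkn1b of its own family in all 6 libraries.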

How the data were processed

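RNA abundance was measured by RNA-seq in 3 WT and 3 MU libraries of NIH-3T3 cells, made with a stranded mRNA kit per the labels' protocols. Per the submitters' processing notes, the authors worked on build mm10 with DESeq2 1.20.0, featureCounts 1.5.0-p3, HISAT2 2.05.0 and FastQC 0.11.4; the sources used here do not give the role of each tool, the annotation or how strand was counted. The authors deposited log2 values per gene and library, which from the header and the values are log2(TPM + 1). They also deposited mean TPM, log2 fold changes and p-values per gene. The authors' scaling to TPM removes the depth, so none is known.

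Values were turned back to TPM for printing and tested as log2(TPM + 1) with limma 3.58.1 in R 4.3.3 (trend, two-sided, no covariate). Genes needed at least 1 TPM in at least 3 of 6 libraries, and p-values were adjusted by Benjamini-Hochberg over all 14209 tested genes. The script was tested on simulated data. Identifiers without version matched GENCODE M21 (GRCm38, the assembly of mm10) for 55141 of 55401 genes; for Peg3 the version differs. Promoter windows from RefSeq (GRCm38.p6) were matched by symbol for 7 of the 10 genes, not for H19, Cdkn1c and Peg10.

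The 10 genes and all lists were chosen with earlier results of these data known. All 10 genes and the tested genes of their clusters could be named, with the nearest tested neighbours outside the imprinted lists; in each other list, the 2 higher and 2 lower genes with the smallest adjusted p could be named. Untested cluster genes (Ddc, Cobl, Kcnq1ot1, Rtl1, Sgce), Grb14, Cdkn1b, Cdkn2a and Cdkn2b were named after their values were seen. Marker lists (fibroblast, adipocyte, skeletal muscle, epithelial, leukocyte and endothelial, pluripotent and germ cell) were read by level: the summed TPM in WT and MU was 19.3 to 22.8 and 12.8 to 13.7 for adipocyte markers, nearly all of it Lpl, 1.16 to 2.49 and 4.29 to 5.03 for muscle, 0.790 to 1.54 and 1.60 to 2.31 for epithelium, 4.15 to 6.68 and 4.29 to 6.76 for leukocytes and endothelium, and 0 to 0.739 and 0.168 to 0.475 for pluripotent and germ cells. Their part in the results was not tested. Alternatives covered the pseudocount, filter, scaling, variance model, replicate block, position, GC content with length, and each library left out.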

Additional observations from a re-analysis of the deposited data

How the results depend on the processing

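All results were recomputed under 18 alternatives, 6 of which left out 1 library. The calls and directions of Grb10, Ndn and Meg3 held under every alternative in which the gene was tested; Meg3 was left untested by the TPM minimum of 5 and without any 1 of the WT libraries. The count of called members, 3, was 5 with position-centred values and 5 after correction for GC content and length, where Peg3 and Plagl1 passed, and it ranged from 2 to 4 over the libraries left out. Replicate numbers did not pair the libraries: same-numbered WT and MU libraries correlated in their deviations at 0.05, 0.02 and -0.07. With the replicate block, all genes called fell from 2667 to 1093, the members stayed at 3, the cluster genes went from 8 to 5 and the other lists from 31 to 12. Leaving out 1 library gave 991 (without MU 2) to 3270 (without WT 2) called genes, 3 to 7 cluster genes and 11 to 33 in the other lists; without WT 1, MU 1 or MU 3 the calls were 1279, 1091 and 1116, and fewer residual degrees of freedom remain in each such fit. A TPM minimum of 5 left 5 called cluster genes of 12 tested. Near-zero differences changed sign for Osbpl5 (from -0.22 to 0.030 over the libraries left out, the latter without WT 2), Usp29 (from -0.18 to 0.087, the latter without MU 1, and 0.016 after GC correction), Mkrn3 (from -0.020 without WT 2 to 0.19, and -0.0028 without MU 1) and Snhg14 (from -0.038 without WT 2 to 0.37); none of the 4 genes passed in any of the fits. The unknown depth limits what can be said of genes under 1 TPM, H19, Cdkn1c, Peg10 and Meg3 in MU among them.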
